A study of Mus musculus with 6 samples.

Results

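The 10 genes described here, proteases and protease inhibitors of epithelial cells, most of which act at the cell surface, were read from RNA of entire E 9.5 mouse embryos. They are the serine proteases Tmprss2, St14, Hpn and Prss8, the inhibitors Spint1, Spint2 and Spink1, and the metallopeptidases Anpep, Enpep and Mme. All 10 were measured, on 15 probe sets that the platform annotation assigns to 1 of these symbols alone, out of 18194 genes and 45101 probe sets in the table. The set was chosen from an earlier reading of these same arrays, in which the difference between RFC1-/- and RFC1+/+ littermates was already known. Tmprss2, Prss8 and Spink1 (under its older symbol Spink3) also stand on the list of changed genes that the study drew from these samples. The differences of the 10 genes are therefore given as a description and not as a test.

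RFC1 is the reduced folate carrier, a membrane protein that takes up folate; its mouse gene symbol is Slc19a1, and RFC1-/- embryos are homozygous for the inactivated gene. The labels describe the RFC1-/- embryos as carrying an open neural tube (craniorachischisis) and an allantois that had not fused with the chorion, and the RFC1+/+ embryos as normal in both respects. Each group held 3 embryos, 1 per array, and each RFC1-/- embryo was paired with an RFC1+/+ embryo of the same litter, from 3 litters in all. The targeted allele had been moved onto the inbred SWV background, and the dams of both groups were injected under the skin with 25 mg/kg folic acid every day from E 0.5, so that no unsupplemented embryo was compared. According to the methods, embryos were dissected free of the decidual capsule, and extraembryonic membranes were taken for genotyping. The study's background describes RFC1-/- embryos at this dose as delayed in development by mid-gestation, and genotype and stage cannot be told apart here. In RNA of whole embryos, fewer cells of a type and less RNA per cell cannot be told apart either. Array medians lay between 5.43 and 5.49 on the log2 scale. On its brightest probe set Slc19a1 read 9.97, 10.10 and 9.84 in the RFC1-/- group (litters 1, 2 and 3), against 9.11, 9.10 and 8.89 in the RFC1+/+ group. The sources used here do not place that probe set relative to the inactivated part of the gene, so the genotypes rest on the labels.

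Trypsin-like serine proteases on epithelial surfaces are made as inactive precursors and cut one another in short cascades. Matriptase, encoded by St14, and prostasin, encoded by Prss8, activate each other in mouse epithelia, and both are held in check by the membrane-spanning Kunitz inhibitors HAI-1 (Spint1) and HAI-2 (Spint2). Mice without Spint1 fail to form the placental labyrinth, mice without Spint2 have defects of placenta and neural tube closure, and removing St14 as well relieves the placental defects. Anpep, Enpep and Mme are zinc peptidases that trim small peptides at brush borders and other cell surfaces.

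RefSeq windows around annotated starts (build GRCm38.p6) were at hand for 7 of the 10 genes: Tmprss2, Hpn, Spint1, Spint2, Anpep, Enpep and Mme. The 150 bases upstream of the start are shown for Tmprss2, the member with the widest difference among these 7, for the inhibitor Spint1, and for the aminopeptidases Enpep and Anpep, of which Enpep lay above the level of olfactory receptor probe sets and Anpep did not. Capitals mark matches to the motifs listed after them, and each sequence reads 5′ to 3′ on the strand of the gene.

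Tmprss2 (chr16:97611196-97611345, minus strand): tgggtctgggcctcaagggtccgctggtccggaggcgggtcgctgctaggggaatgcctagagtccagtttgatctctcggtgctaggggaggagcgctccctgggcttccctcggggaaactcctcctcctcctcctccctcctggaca

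Spint1 (chr2:119237210-119237359, plus strand): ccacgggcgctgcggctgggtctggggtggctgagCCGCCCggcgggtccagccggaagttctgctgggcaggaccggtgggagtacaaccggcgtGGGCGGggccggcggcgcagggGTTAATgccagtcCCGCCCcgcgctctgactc

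Enpep (chr3:129332750-129332899, minus strand): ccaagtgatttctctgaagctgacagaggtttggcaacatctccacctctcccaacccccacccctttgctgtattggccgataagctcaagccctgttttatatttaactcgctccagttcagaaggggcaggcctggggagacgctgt

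Anpep (chr7:79848211-79848360, minus strand): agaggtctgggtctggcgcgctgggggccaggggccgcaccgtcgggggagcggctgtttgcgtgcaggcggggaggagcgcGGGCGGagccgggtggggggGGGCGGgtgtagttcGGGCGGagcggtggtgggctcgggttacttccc

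The Tmprss2 window belongs to a start inside the annotated gene, which reaches further upstream. Matches were sought on both strands over the 250 bases before each start, in 10 windows of the 7 genes, since Mme and Hpn have several starts. The GC box (GGGCGG) stood in 7 of the 10 windows, of Spint1, Spint2, Hpn, Mme and Anpep, and in 32.7% of all 32851 windows of the table. The HNF1 motif (GTTAAT) stood in the Spint1 window and in 6.43% of all, and an E-box (CACCTG) in windows of Spint2 and Hpn and in 17.2% of all. None of the 10 windows held the motif searched for GATA factors (AGATAA), found in 9.99% of all windows. The motif for FOXA factors (TGTTTAC), found in 3.17% of all, was likewise not among them. The same held for the HNF4 motif (CAAAGTCCA), found in 0.384% of all windows, and for the GRHL motif (AACCGGTT), found in 0.116%. No match to one motif overlapped a match to another. Such matches describe letters and not binding. GC content over the 250 bases ranged widely, with 72.8% for Spint1 and for Anpep, 61.6% for Tmprss2 and 52.4% for Enpep, against a median of 52.4% over all windows.

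Of the 10 genes, 9 were higher in RFC1-/- embryos than in their RFC1+/+ littermates in every litter, with measured means between 1.57-fold (Mme) and 13.5-fold (Spink1) apart. Anpep measured lower, at a level too dim to give a direction. The median log2 difference of the 10 genes was 0.82, against -0.01 over all 18194 genes tested. With limma over all genes and the litter as a block, 8 of the 10 genes lay higher at an adjusted p under 0.05, where 3.67% of all genes did, and none lay lower, where 1.65% of all genes did. Hpn and Anpep were the members that did not pass. The count was 3 of 10 without litter 1 (Tmprss2, Prss8 and Spink1). The 1.5-fold variation filter of the methods kept 7 of the 10 genes, of which 4 passed (Tmprss2, Prss8, Spink1 and Enpep). In all 10 genes the values of the groups did not overlap, 9 with RFC1-/- above (12.8% of all genes) and 1 with RFC1-/- below (13.4% of all genes). These counts restate the contrast on which the genes were picked, and nothing is read from them.

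**Figure D1:**
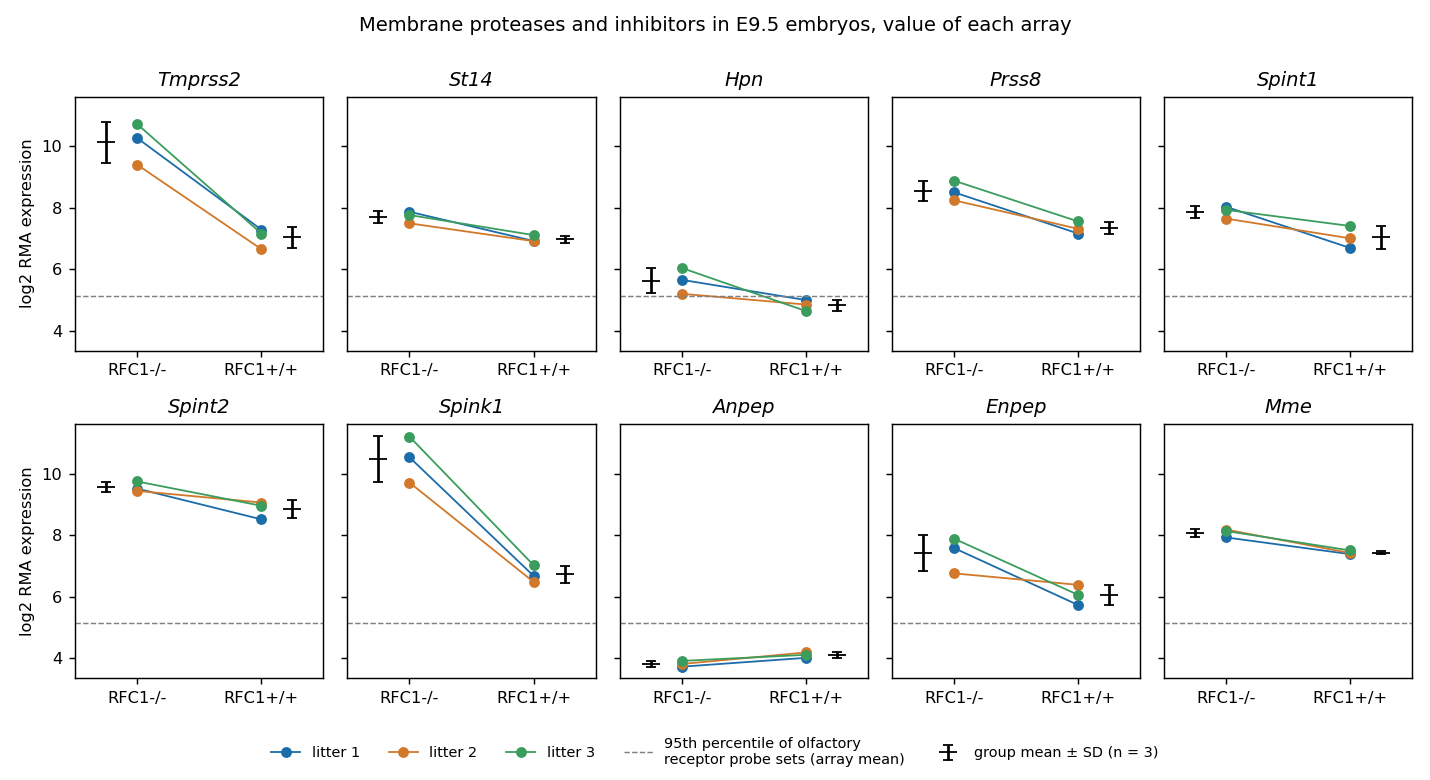
Log2 RMA expression (y axis) of each of the 10 genes in RFC1-/- embryos and RFC1+/+ embryos (x axis), on the probe set with the highest mean. Coloured points joined by lines are littermates, black marks are group means with SD (n = 3 each), and the dashed line is the 95th percentile of olfactory receptor probe sets (mean over arrays), below which all 6 Anpep values lie.

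A level of mostly silent genes was taken from 44 probe sets of olfactory receptor genes, whose 95th percentile lay between 4.91 and 5.33 on the log2 scale on the 6 arrays. All members but Hpn and Anpep lay above it on every array. Hpn lay above it on the 3 arrays of RFC1-/- embryos and on none of RFC1+/+ embryos, and Anpep on no array.

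Among the serine proteases, Tmprss2 differed most. It encodes a type II transmembrane protease, held in the membrane by its N-terminal end, that is found in gut, prostate and airway epithelium. In log2 units its brightest probe set read 10.27, 9.40 and 10.72 in RFC1-/- embryos (litters 1, 2 and 3), against 7.29, 6.66 and 7.16 in RFC1+/+ embryos. The lowest RFC1-/- value stood 2.11 above the highest RFC1+/+ value. The log2 difference was 3.09 (standard error 0.16 from limma), or 8.54-fold, with 2.98, 2.75 and 3.56 in the single litters.

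Tmprss2 had 4 probe sets, and 3 of them were higher in RFC1-/- embryos in every litter. The second measured 9.31, 8.46 and 9.93 in RFC1-/- embryos and 6.59, 5.54 and 6.76 in RFC1+/+ embryos, a 7.66-fold difference. The third measured 6.10, 5.45 and 6.77 in RFC1-/- embryos, against 4.41, 4.44 and 4.70 in RFC1+/+ embryos, where it did not exceed the olfactory receptor level. It was thus at least 1.84-fold higher, taking on each array the higher of that level and the measured value for RFC1+/+ embryos, while the measured means differed 3.01-fold. The fourth stayed between 3.80 and 3.87 in RFC1-/- embryos and between 3.62 and 3.83 in RFC1+/+ embryos, below the olfactory receptor level on all arrays. The suffix _s_at of the brightest probe set means that its probes can match more than 1 transcript.

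Prss8, which encodes the GPI-anchored protease prostasin, measured 8.51, 8.25 and 8.89 in RFC1-/- embryos and 7.16, 7.32 and 7.56 in RFC1+/+ embryos. The groups were 0.69 apart at their closest, and the difference was 2.30-fold (log2 difference 1.20, standard error 0.12 from limma). Its litters were close to each other, with differences of 1.34, 0.93 and 1.33.

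St14, the gene of matriptase, measured 7.87, 7.50 and 7.77 in RFC1-/- embryos and 6.92, 6.92 and 7.11 in RFC1+/+ embryos. The means of RFC1-/- and RFC1+/+ embryos were 1.66-fold apart (log2 difference 0.73, standard error 0.11 from limma), with litter 1 showing the widest difference at 0.95.

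Hpn, the gene of hepsin, a type II transmembrane protease abundant in liver, was dim. It measured 5.66, 5.21 and 6.05 in RFC1-/- embryos, against 5.00, 4.85 and 4.64 in RFC1+/+ embryos. The measured means differed 1.75-fold (log2 difference 0.80, standard error 0.19 from limma), and against the olfactory receptor level the difference was at least 1.33-fold. Its litters were uneven, with a difference of 1.40 in litter 3 and of 0.35 in litter 2.

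**Figure D2:**
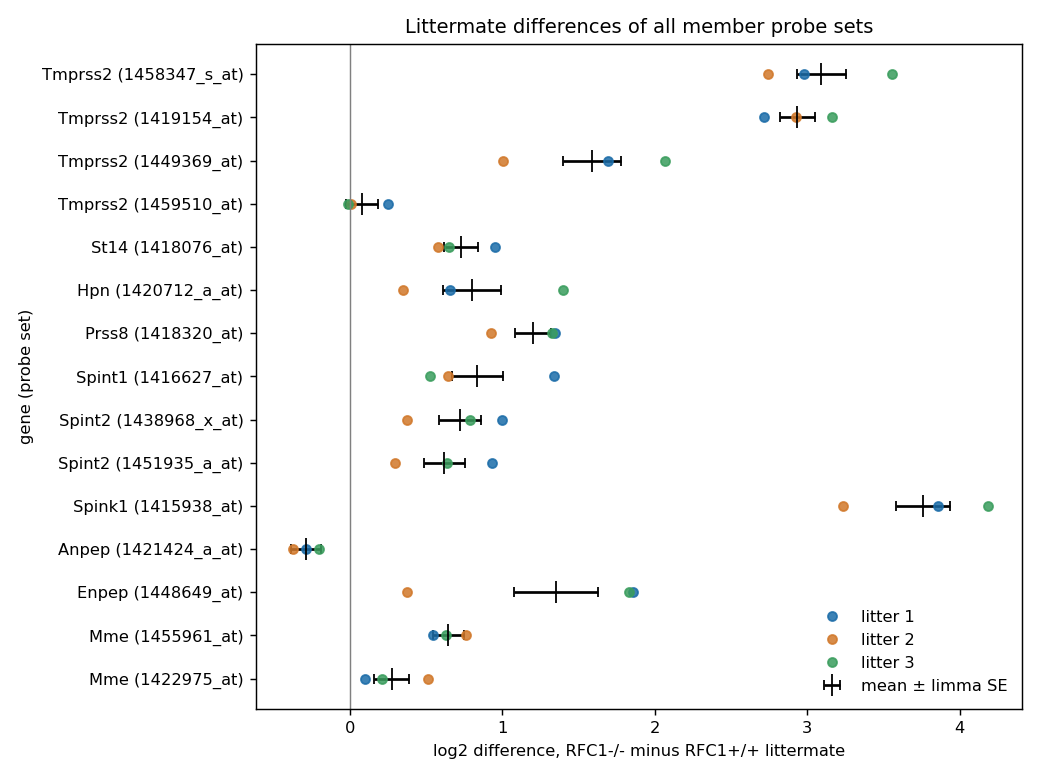
RFC1-/- minus RFC1+/+ difference within litters, in log2 units (x axis), for the 15 probe sets of the 10 genes (y axis). Each litter has its own colour, and black marks show the limma mean with its standard error. The means run from -0.29 for Anpep to 3.76 for Spink1, and litter 2 has the smallest difference for Spink1, Tmprss2 (brightest probe set), Hpn, Prss8, St14, Spint2 and Enpep.

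The inhibitors were all higher in RFC1-/- embryos. Spink1 encodes a small secreted Kazal inhibitor of trypsin, best known from pancreas and gut. In log2 units it read 10.54, 9.72 and 11.21 in RFC1-/- embryos and 6.68, 6.49 and 7.03 in RFC1+/+ embryos. The groups were 2.69 apart at their closest, the widest gap of the 10 genes. The difference was 13.5-fold (log2 difference 3.76, standard error 0.18 from limma), with 3.86, 3.23 and 4.18 in litters 1, 2 and 3.

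The Kunitz inhibitors of matriptase differed by less. Spint1 measured 8.03, 7.65 and 7.93 in RFC1-/- embryos and 6.69, 7.01 and 7.41 in RFC1+/+ embryos, a 1.79-fold difference (log2 difference 0.84, standard error 0.17 from limma). Its RFC1-/- values had an SD of 0.20 and its RFC1+/+ values one of 0.36 (n = 3 each). Its litter differences of 1.34, 0.64 and 0.52 were widest in litter 1, where the RFC1+/+ embryo was lowest. Spint2 measured 9.52, 9.45 and 9.75 in RFC1-/- embryos and 8.52, 9.07 and 8.96 in RFC1+/+ embryos, a 1.65-fold difference (log2 difference 0.72, standard error 0.14 from limma). Litter 1 again held its lowest RFC1+/+ value and its widest difference, 1.00, against 0.38 and 0.79 in litters 2 and 3.

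The other probe set of Spint2 ran alongside, with 9.40, 9.09 and 9.51 in RFC1-/- embryos and 8.47, 8.79 and 8.87 in RFC1+/+ embryos, and differed 1.54-fold. The brighter one carries the suffix _x_at, for probe sets with probes that can hybridize to other transcripts. The mean log2 differences of St14, Spint1 and Spint2, a protease and its inhibitors, thus lay between 0.72 and 0.84. That of Hpn, at 0.80, lay in the same range, and that of Prss8 was 1.20. Those of Tmprss2 and Spink1 exceeded 3.

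Of the metallopeptidases, Enpep and Mme were above the olfactory receptor level and higher in RFC1-/- embryos. Enpep encodes aminopeptidase A, which removes acidic residues and converts angiotensin II to angiotensin III. It measured 7.59, 6.77 and 7.90 in RFC1-/- embryos and 5.74, 6.39 and 6.07 in RFC1+/+ embryos, a 2.55-fold difference (log2 difference 1.35, standard error 0.28 from limma). Its litter differences of 1.86, 0.37 and 1.83 had an SD of 0.85 (n = 3), the largest of the 10 genes, as the litter 2 embryos of the 2 groups were closest to each other.

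Mme encodes neprilysin, which degrades enkephalins, natriuretic peptides and other small peptides. It measured 7.93, 8.19 and 8.14 in RFC1-/- embryos and 7.39, 7.43 and 7.51 in RFC1+/+ embryos, a 1.57-fold difference (log2 difference 0.65, standard error 0.10 from limma). Mme was the one gene of the 9 with its widest difference in litter 2, at 0.76. Its other probe set lay below the olfactory receptor level on all arrays, between 4.34 and 4.49 in RFC1-/- embryos and between 3.98 and 4.25 in RFC1+/+ embryos.

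Anpep encodes aminopeptidase N (CD13), a brush border enzyme. It measured 3.73, 3.82 and 3.92 in RFC1-/- embryos and 4.02, 4.19 and 4.12 in RFC1+/+ embryos. The log2 difference was -0.29 (standard error 0.10 from limma), but both groups lay below the olfactory receptor level, so no fold is given and no direction is read from it.

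In the RefSeq annotation (GRCm38.p6) 4 of the 10 genes lie on chromosome 7: Spint2 at 29256330 to 29282059, Hpn at 31098725 to 31115326, Anpep at 79821803 to 79848210 and Prss8 at 127925717 to 127930149. Mme (63295211 to 63383713) and Enpep (129269177 to 129332749) lie on chromosome 3. Tmprss2 lies on chromosome 16, St14 on chromosome 9 and Spint1 on chromosome 2.

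Related genes were set beside the members. Of 79 listed relatives, substrates and receptors, 68 were measured, with a median log2 difference of -0.03. At an adjusted p under 0.05 in limma, 4 were higher in RFC1-/- embryos, where 3.67% of all genes were, and 1 was lower, where 1.65% of all genes were. Counts this small are close to those shares, and nothing particular to these families is read from them. Without litter 1 the counts were 2 and 0. No other type II transmembrane serine protease passed, of 12 measured (also 0 at an unadjusted p under 0.05 and 0 in the random-variance test of the methods), and 9 of the 12 lay below the olfactory receptor level on all arrays. Among them Tmprss4 had litter differences of 0.05, -0.30 and 1.29. No other M1 aminopeptidase passed, of 8 measured (0 at an unadjusted p under 0.05, 0 in the random-variance test).

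Ambp and Tfpi2 were the genes that passed the threshold among 14 other Kunitz and Kazal inhibitors, both higher in RFC1-/- embryos. Ambp, the precursor of the plasma inhibitor bikunin, measured 6.81, 6.15 and 7.22 in RFC1-/- embryos and 5.57, 4.87 and 5.10 in RFC1+/+ embryos. Its measured means were 2.93-fold apart (adjusted p = 0.00923 from limma). Only 2 of the 3 RFC1+/+ values exceeded the olfactory receptor level, so that fold is uncertain. Tfpi2, a secreted inhibitor found in extracellular matrix, measured 5.76, 5.24 and 6.71 in RFC1-/- embryos and 4.28, 4.64 and 4.88 in RFC1+/+ embryos. It did not exceed the olfactory receptor level in RFC1+/+ embryos and was at least 1.60-fold higher (adjusted p = 0.0235 from limma, 0.0599 without the litter as a block and 0.0673 without litter 1).

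Cpm, a membrane-anchored carboxypeptidase, measured 8.89, 8.45 and 8.78 in RFC1-/- embryos and 7.23, 7.20 and 7.86 in RFC1+/+ embryos, without overlap. It rose 2.42-fold (adjusted p = 0.00923 from limma) and was the one gene of 9 measured in a list of other brush border peptidases that passed. The M13 gene Kel, a peptidase of the red cell surface, measured 3.98, 4.23 and 4.22 in RFC1-/- embryos, against 5.55, 5.11 and 4.74 in RFC1+/+ embryos. It fell by 0.99 on the log2 scale (adjusted p = 0.0352 from limma, 0.0961 and 0.0644 without litters 1 and 2), and exceeded the olfactory receptor level in 1 RFC1+/+ embryo only. Prss41, another serine protease gene, rose 1.36-fold at the edge of the threshold (adjusted p = 0.0485 from limma, between 0.0649 and 0.287 without single litters).

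None of 15 measured substrates and receptors passed (3 at an unadjusted p under 0.05, 0 in the random-variance test). They include Hgf, a growth factor whose precursor St14 and Hpn cleave, with a log2 difference of -0.06, and its receptor Met with 0.18. Agtr1a, a receptor for angiotensin II, had a log2 difference of 0.65 (adjusted p = 0.0539 from limma).

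**Figure D3:**
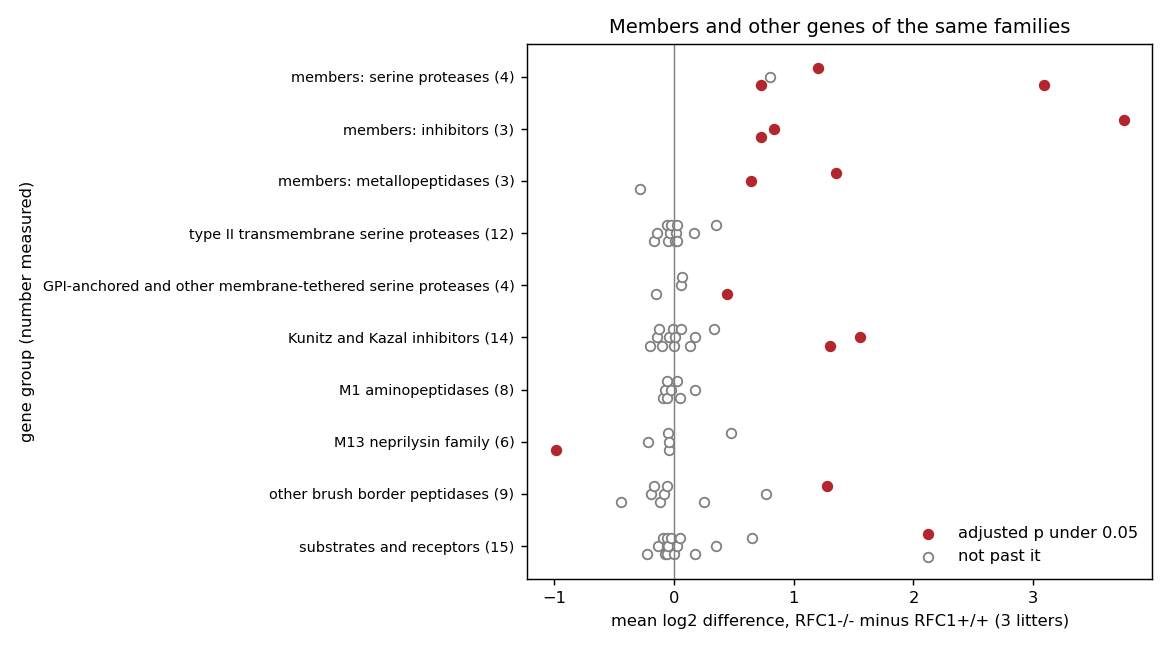
Mean log2 difference, RFC1-/- minus RFC1+/+ over 3 litters (x axis), of single genes in the 3 groups of members and in 7 lists of related genes, with the number measured in brackets (y axis). Filled points passed an adjusted p of 0.05 in limma and open points did not. The members were chosen with these differences known, and 63 of the 68 related genes are open points.

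Markers of visceral endoderm, the absorptive epithelium that covers the yolk sac, differed in the same direction as the 9 genes. All 18 measured markers were higher in RFC1-/- embryos at an adjusted p under 0.05 in limma (13 without litter 1), with a median log2 difference of 3.30. Their summed linear signal ranged from 24123 to 63207 in RFC1-/- embryos and from 2895 to 6935 in RFC1+/+ embryos, and 11 of the 18 lay above the olfactory receptor level in every RFC1+/+ embryo. Cubn, the endocytic receptor cubilin, measured 11.40, 10.06 and 12.39 in RFC1-/- embryos and 7.90, 5.23 and 5.27 in RFC1+/+ embryos.

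Of 15 markers of simple and surface epithelium, 10 were higher in RFC1-/- embryos at an adjusted p under 0.05 in limma, with a median log2 difference of 0.78 over the list, and 1 was lower. Their summed linear signal ranged from 12615 to 15131 in RFC1-/- embryos and from 6065 to 8519 in RFC1+/+ embryos. Cldn6, a tight junction protein, rose 2.74-fold, Krt19, a keratin of simple epithelia, 2.54-fold and Cdh1, the epithelial cadherin, 2.48-fold (adjusted p = 0.00523, 0.00717 and 0.0121 from limma). Trp63, a factor of surface ectoderm, fell by 0.96 on the log2 scale (adjusted p = 0.0125 from limma). The part of either tissue in the differences of the proteases and inhibitors was not tested.

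Other tissues are given for comparison. Of the parietal endoderm markers 5 of 9 were higher (0 without litter 2). Of the trophoblast markers 0 of 9 were higher (2 at an unadjusted p under 0.05, 0 in the random-variance test). Of the decidual markers 1 of 5, Cryab, was higher, and 3 of the 5 had a positive mean difference. Prl8a2, also a decidual marker, did not pass, with log2 differences of -5.87, -1.19 and 1.18 in litters 1, 2 and 3. Neural progenitor markers were lower, 11 of 13, as were primitive erythroid markers, 9 of 12.

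The RFC1+/+ embryo of litter 1 stood apart. Prl8a2, a prolactin family gene of the decidua, had a log2 value of 11.17 in it and 5.68 and 6.66 in the other RFC1+/+ embryos. RFC1-/- embryos lay between 4.49 and 7.84. Its summed visceral endoderm signal of 6935 was also the highest of its group, ahead of 2895 and 3203. In the same embryo Spint1, Spint2, Enpep, Prss8, Mme and Anpep had their lowest RFC1+/+ values, and Tmprss2 on its brightest probe set and Hpn their highest. Anpep and Hpn lay below the olfactory receptor level in all RFC1+/+ embryos, so their order is not read. Mme varied little there, between 7.39 and 7.51.

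Within the RFC1-/- group, litter 3 was highest and litter 2 lowest for 6 of the 10 genes: Tmprss2, Hpn, Prss8, Spint2, Spink1 and Enpep. The same order held for 16 of 18 visceral endoderm markers and for 21.8% of all genes. In St14 and Spint1 litter 1 was highest, and in Mme litter 2. By role, the median log2 differences in litters 1, 2 and 3 were 1.15, 0.75 and 1.37 for the serine proteases, 1.34, 0.64 and 0.79 for the inhibitors and 0.54, 0.37 and 0.63 for the metallopeptidases. Those of visceral endoderm markers were 2.73, 2.60 and 4.66. The median of the inhibitors was thus widest in litter 1, though Spink1 alone was widest in litter 3. The medians of the other groups were widest in litter 3. Single members departed from this, as St14, Prss8 and Enpep were widest in litter 1 and Mme in litter 2. The metallopeptidase medians include Anpep, whose direction is not read.

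**Figure D4:**
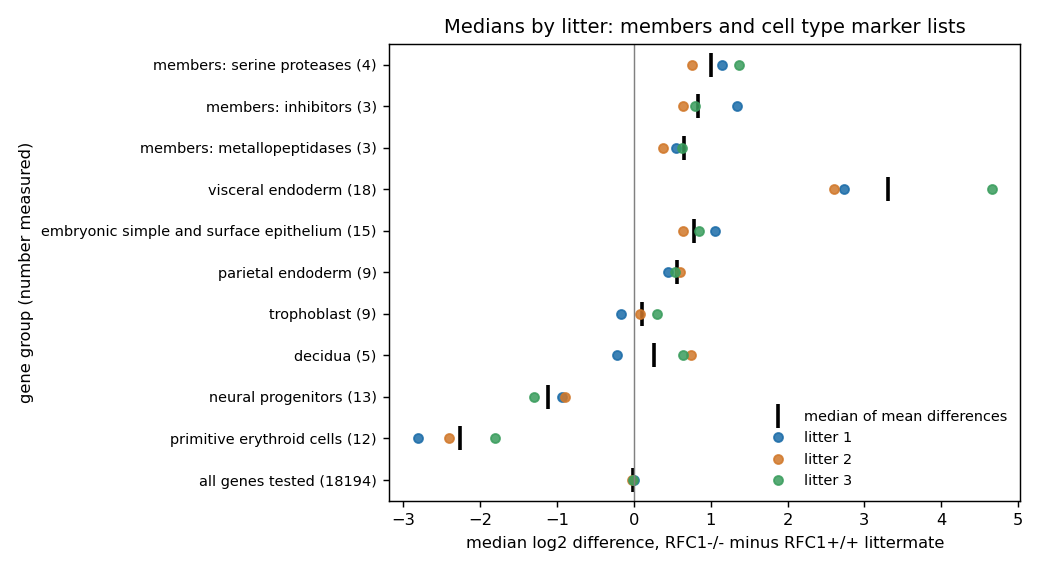
Median of the RFC1-/- minus RFC1+/+ differences in log2 units (x axis), for the members by role, for marker lists of cell types and for all genes tested, each with its number of measured genes (y axis). Every litter's median has its own colour, and black bars show the medians of the mean differences. Visceral endoderm markers lie furthest to the right, at 3.30, the 3 groups of members between 0.65 and 1.00, and primitive erythroid markers furthest to the left, at -2.27.

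Embryo sex differed within litters 2 and 3. Xist, which is transcribed from the inactive X chromosome, measured 5.37, 5.25 and 11.92 in RFC1-/- embryos and 6.10, 11.90 and 5.59 in RFC1+/+ embryos, and the Y-linked gene Eif2s3y ran the opposite way. Litter 1 was thus the pair of like sex. In it the 9 genes were higher in the RFC1-/- embryo, by between 0.54 (Mme) and 3.86 (Spink1) on the log2 scale. That is a single pair, and its RFC1+/+ embryo is the one that stood apart. The part of sex in the differences was not tested.

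Genes outside the set whose 3 litter differences lay closest to those of a member were sought by root mean square distance over the 3 litters, among all genes tested. For Tmprss2 they were Pla2g12b, Rhox5 and Dpp4, at distances of 0.38, 0.42 and 0.49 on the log2 scale, and for Spink1 they were Rbp4, Rhox5 and Apom, at 0.58, 0.58 and 0.61. Enpep was closest to Esm1, Pls1 and Tfpi2, at 0.25, 0.26 and 0.26. No other gene came within 0.2 of Tmprss2, Spink1 or Enpep.

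The other members had closer neighbours. Prss8 was closest to Cobll1, Ocln and Mtus1, at 0.04, 0.09 and 0.11. Hpn was closest to Fam110c, F2 and Abcb1b, at 0.06, 0.06 and 0.07. Spint1 was closest to Akap5, Marveld2 and Acta1, at 0.06, 0.06 and 0.07. For Spint2 the genes were Myocd, Dsp and Rcsd1, at 0.03, 0.04 and 0.06. Genes within 0.2 numbered 22 for Prss8, 37 for Hpn, 44 for Spint1 and 98 for Spint2. Small differences are shared by many genes: 172 genes lay within 0.2 of St14 (Aldh7a1, Itpr3 and Elovl7 closest), 173 of Mme (Arhgap28, Pcdh7 and Polg closest) and 2132 of Anpep (Slx4ip, Celsr3 and Dnmt1 closest).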

How the data were processed

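RNA of each of 6 whole embryos was amplified and measured on its own Affymetrix mouse genome array. The authors deposited log2 expression values per probe set, made with RMA according to the methods and the submitters' processing notes: background correction of perfect match probes, quantile normalization and median polish. RMA draws low values together, so that differences of dim genes are understated. Which RMA version was run is not given in the sources used. The table holds all 45101 probe sets, and 0 value columns were left unused. Arrays hold no read counts, and their number limits the precision.

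Gene symbols came from the platform annotation (34958 probe sets with 1 symbol, 932 with several, 9211 with none), and each gene was represented by its probe set of highest mean. The difference RFC1-/- minus RFC1+/+ was fitted over 18194 genes with limma 3.58.1 in R 4.3.3, with the litter as a block, as the methods pair littermates, and with Benjamini-Hochberg adjustment over all genes. A fit over all probe sets gave the standard errors of further probe sets. The pairing comes from the design text; deviations from the group means of same-numbered embryos correlated at 0.01, -0.03 and -0.20 across genes. Folds are antilogs of mean log2 differences. Fits were tested on simulated data. Python 3.11.15 with pandas 2.3.3, numpy 2.4.6 and matplotlib 3.10.9 made tables and plots.

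The members and lists were chosen with earlier results of these data known. Listed genes whose symbol had no probe set to itself were not analysed here. The rule for named genes took every member, up to 4 genes per list past the threshold with those against the direction of most, and the 3 genes closest to each member. Not all marker genes that it took are printed. Some others, named for their role, were chosen after their values were seen. Alternatives were no block, the 1.5-fold variation filter, dim probe sets left out, an intensity trend, the random-variance paired test, median centring, a second quantile normalization, averaging of probe sets per gene, and each litter left out.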

Additional observations from a re-analysis of the deposited data

How the results depend on the processing

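Of the 10 genes, 8 lay higher at an adjusted p under 0.05 in limma. The count was also 8 when the litter block was dropped, while an intensity trend gave 9 and the random-variance test 7. Leaving out single litters gave between 3 (without litter 1) and 7. With arrays centred on their medians or probe sets averaged it was 6. With the variation filter it was 4 of the 7 genes that entered that fit. Over all genes, 667 were higher and 301 lower, against 294 and 122 with that filter, which tests fewer genes, and between 237 and 861 higher and 118 and 338 lower without single litters. Related genes past the threshold ranged from 2 to 5 higher and from 0 to 2 lower without single litters, and 0 were lower with dim probe sets left out, a setting that removes Kel. Parietal endoderm markers numbered 0 with the variation filter and 0 to 4 without single litters, and neural progenitor markers 7 with the filter. The median log2 difference of the 10 genes lay between 0.79 and 0.98 in every setting that kept all 10. No alternative reversed the sign of a member or of a related gene past the threshold (Ambp, Cpm, Kel, Prss41 and Tfpi2). The signs of the other related genes were not compared. For members, 88 comparisons of a gene with an alternative kept their side of the threshold, and 2 (Hpn) gained it. The 16 that lost it were of St14, Spint1, Spint2, Enpep and Mme. Enpep did not pass in the random-variance test of the methods (adjusted p = 0.0537). Spint1 did not pass with arrays centred on their medians (adjusted p = 0.0567 from limma). The cause of these changes was not tested. Precision is set by 3 pairs, and the table holds no detection calls, so levels near that of olfactory receptor probe sets are uncertain.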
